A study of Homo sapiens with 24 samples.

Results

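The translational efficiency (TE) of HCT116 colon cancer cells was compared with that of 841CON colon epithelial cells by ribosome profiling. TE is the level of ribosome footprints on the mRNAs of a gene relative to the level of its RNA. The comparison used 8 of the 24 libraries of the series. They were the 2 libraries of ribosome-protected fragments (RPF) and the 2 of total RNA (INPUT) from each line. TE was taken as the footprint change minus the RNA change between the lines, over the 20426 genes listed in both kinds of table. Of these, 11938 were counted deeply enough to be fitted, and the 8502 whose INPUT counts averaged 10 or more in each line were tested. The labels describe 841CON as normal colon epithelium, grown in EMEM, and HCT116 as colon cancer cells, grown in RPMI-1640. Both carried the genotype label WT, and all cells had received cycloheximide at 100 µg/mL for 10 minutes before lysis. The line and its medium cannot be told apart in these data. The files identify genes by Ensembl number, and the tables used here do not pair these with names. Genes are therefore grouped by what was measured on them, the lines were not checked against marker genes, and just 4 genes are given singly, by their identifiers. Mitochondrially encoded genes were likewise not set apart, so whether any of the 4 is among them was not checked.

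Cycloheximide stops elongating ribosomes of the cytosol on the mRNA. Nuclease then removes the mRNA that no ribosome covers, and the protected fragments are sequenced and counted per gene. A gene with many footprints for its RNA is one whose mRNAs carry many ribosomes, which can follow from frequent initiation or from slow elongation, and counts per gene do not separate these. In colon cancer the translation machinery is often altered along with transcription, so RNA levels alone can miss differences in protein synthesis. Each footprint library was scaled to the other footprint libraries, so a change shared by every mRNA of a line could not be seen.

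The INPUT libraries held between 1383600 and 6596429 counts in the shared genes, and the footprint libraries between 997844 and 3611421. The 2 HCT116 footprint libraries detected 8350 and 8448 genes, against 10760 and 10202 in those of 841CON. The replicates of 841CON INPUT stood apart from each other, with a biological coefficient of variation of 0.800 and a correlation of 0.676 between their log2 levels. The other 3 pairs had coefficients of variation between 0.0386 and 0.0662 and correlations of at least 0.982. Those 3 pairs differed by slightly more than sampling noise, with a chi-square per gene between 1.40 and 1.70. So small a difference does not show that their libraries are biological replicates. Each library was still kept as a replicate in the main fit, and calls with close pairs summed are given beside it. The labels do not say that replicates came from separate cultures. The spread behind the p-values may therefore be technical. In the main fit it was pooled over all 24 libraries of the series, not taken from the compared libraries alone. The wide spread of 841CON INPUT was thus averaged with that of closer groups.

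TE differed between the lines for a large share of genes, and lower values in HCT116 were the more frequent. TE was lower in HCT116 for 2600 genes (30.6% of those tested) and higher for 1280 (15.1%), at an adjusted p under 0.05 in edgeR's quasi-likelihood test with Benjamini-Hochberg adjustment. The sides differed by whether a gene was counted in all 8 libraries, a split that the change itself partly decides, since a large fall in HCT116 footprints can leave a gene uncounted there. Of the 2440 genes missing from at least 1 library, 1504 were lower (61.6%) and 193 higher (7.91%). Among the 6062 genes counted in all 8 libraries the sides were nearly equal, with 1096 lower (18.1%) and 1087 higher (17.9%). The median log2 TE change was -0.0043 over those 6062 genes, and the middle 50% lay between -1.24 and 1.28. When libraries of the 3 close pairs were summed, 1822 of 8899 genes passed (20.5%), 1414 lower and 408 higher. Where each of the 4 groups had to average 50 counts or more, 238 of 2800 genes were lower and 311 higher, and the larger side turned. That floor is on counts, and the HCT116 footprint libraries were shallower (997844 and 1012751 counts) than those of 841CON (3611421 and 1593920). It therefore leaves out genes with few HCT116 footprints more readily, and no direction is read from the turn.

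**Figure D1:**
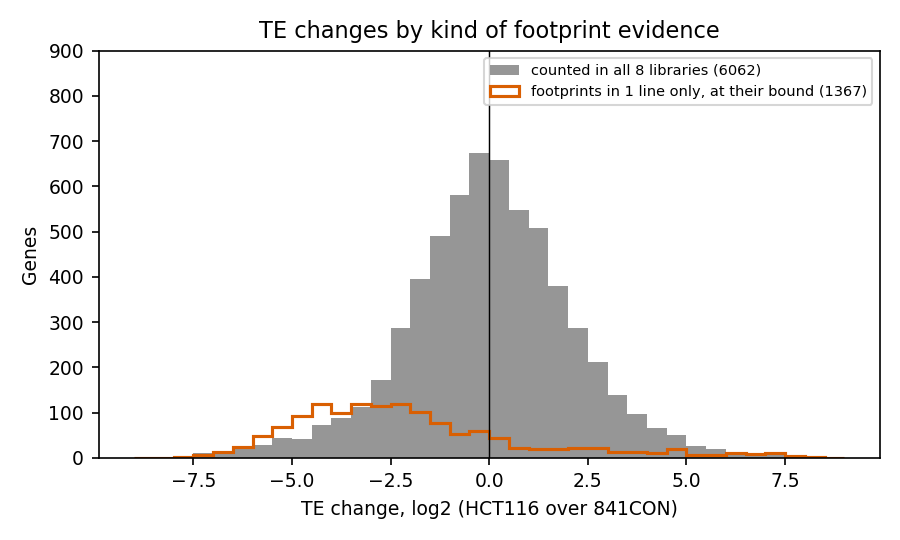
Histogram of the TE change of HCT116 over 841CON on a log2 scale, with the number of genes on the vertical axis. The filled bars are the 6062 genes counted in all 8 libraries, centred near 0. The outline shows the 1367 genes with footprints in 1 line only, placed at the bound that a floor of 3 counts gives, and most of it lies below 0. For a gene with few footprints in that line, the floor can place the bound on the opposite side of 0 from its fitted footprint change.

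The called differences were seen in nearly all cases across every library, not in the averages alone. For each gene, footprint libraries were divided by INPUT libraries in all combinations within a line. Of the genes called higher, 1248 had every HCT116 ratio above every 841CON ratio (97.5% of 1280, against 24.9% of all genes tested). Of those called lower, 2599 of 2600 had every HCT116 ratio below every 841CON ratio, against 46.3% of all genes tested. The call rule and this count rest on the same libraries, so the second adds no independent evidence.

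Changes in TE were large. Among the genes counted in all 8 libraries, the median log2 change was 2.65 for genes called higher and -2.58 for those called lower. No gene called among them had changed by less than 1.00 on the log2 scale. Between 1 and 2 on that scale, 280 genes were called higher, 297 lower and 1197 were not called. Between 2 and 3, 391 were higher, 372 lower and 194 not called. Past 4, all but 3 genes were called, 192 higher and 232 lower. The median standard error of the log2 TE change was 0.67 over these genes, and no change under 2-fold was called at this replication.

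For most of the called genes with full counts, the footprints moved more than the RNA. Footprint changes were wider than RNA changes over all 6062 genes with full counts, with quartiles of -1.26 and 1.35 against -0.92 and 0.91. Among the 3879 of these not called, the quartiles were -0.85 and 1.11 against -0.76 and 0.96. How often footprints moved more over all such genes was not counted, so no property of the called genes is read from the shares below. Among the 1087 with higher TE, the median log2 footprint change was 1.93 and the median RNA change -0.80. By the sign of the fitted values, footprints were higher while RNA was lower for 709 of them. The footprint change exceeded the RNA change in size for 750 (69.0%). Among the 1096 with lower TE, the median footprint change was -2.46 and the median RNA change 0.44. Footprints were lower while RNA was higher for 569 of these, and the footprint change was the greater in size for 823 (75.1%). Over all 8502 genes, 5329 passed for footprints (62.7%), 1985 higher and 3344 lower, and 2670 passed for RNA (31.4%), 1215 higher and 1455 lower, in the same edgeR test. The RNA count fell to 1539 without HCT116 INPUT replicate 1 and to 1429 without replicate 2, and its larger side turned in both, to 879 and 843 higher. That side also turned in other settings, among them no scaling (1406 higher, 1255 lower) and close pairs summed (492 higher, 320 lower), so no direction is read from the RNA calls. RNA enters TE with the opposite sign, so any error in INPUT moves the 2 values in opposite directions.

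**Figure D2:**
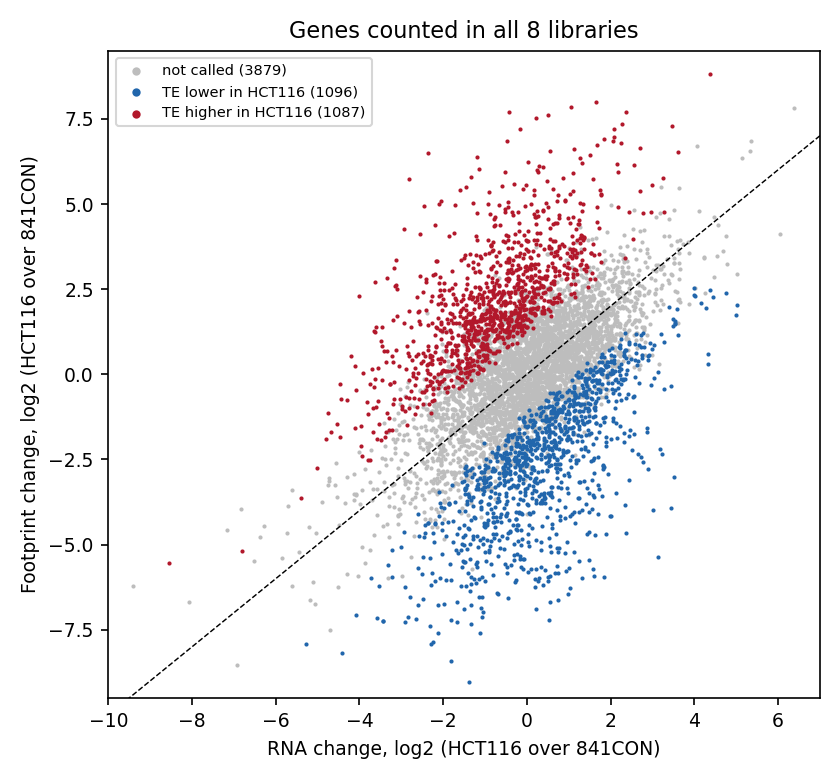
Footprint change (vertical) against RNA change (horizontal), HCT116 over 841CON, both log2, for the 6062 genes counted in all 8 libraries. The dashed line marks equal change, where TE does not differ. The 1087 genes with higher TE lie above it and the 1096 with lower TE below it, spread more along the vertical axis than the horizontal.

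A called RNA change went with a called TE change in the opposite direction more often than in the same one. TE is the footprint change minus the RNA change, so an error in INPUT alone favours opposite calls. The counts below cannot tell such error from a difference between the lines. Among the 1087 genes with higher TE, RNA passed as lower for 352 and as higher for 67, and did not pass for 668. Among the 1096 with lower TE, RNA passed as higher for 294 and as lower for 137, and did not pass for 665. Footprints themselves passed in the direction of TE for 779 and 850 of these genes. Of all tested genes RNA passed for 31.4%, but these include genes not counted in all 8 libraries. In a refit of the 6062 genes counted in all 8, RNA passed for 2320. No excess of RNA calls among the genes called for TE is read from these counts.

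The shares of lower and of higher calls were both smaller at the highest RNA levels than at 20 to 50 CPM. Genes were ordered by the geometric mean of their INPUT levels in the lines, where CPM are counts normalised to the size of the library. From 20 to 50 CPM, 34.0% of 2707 genes were lower and 16.1% higher. From 100 to 200 CPM, 26.6% of 1367 genes were lower and 15.7% higher. At 500 CPM or more, 22.7% of 198 genes were lower and 9.60% higher. The median standard error fell over these levels from 1.01 to 0.60 and 0.54. The share with no HCT116 footprint fell from 21.8% to 3.00% and to 0, and the share with no 841CON footprint from 3.73% to 0.585% and to 0. Among genes counted in all 8 libraries the order of the sides varied with the RNA level. This filter leaves out genes with no HCT116 footprint, which were more frequent at low RNA levels, as given above. The filter and the RNA level therefore cannot be told apart in the values below. From 20 to 50 CPM, 347 of 1631 such genes were higher (21.3%) and 248 lower (15.2%). From 100 to 200 CPM, 203 of 1246 were higher (16.3%) and 261 lower (20.9%), and at 500 CPM or more 19 of 198 were higher and 45 lower.

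**Figure D3:**
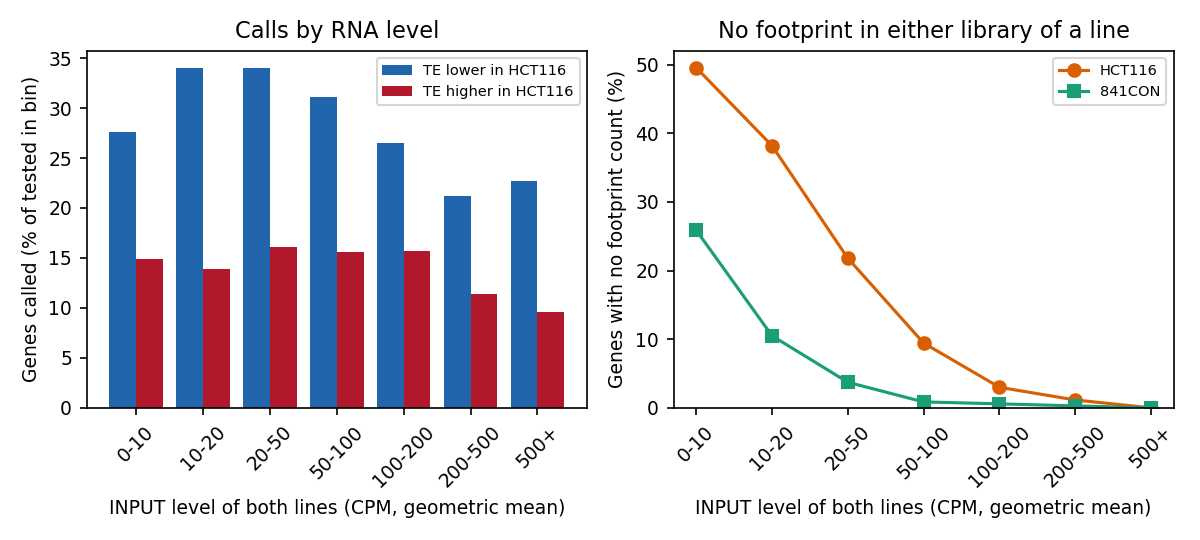
Left, the percentage of tested genes called lower (blue) or higher (red) for TE in HCT116, by INPUT level in CPM. Right, the percentage of genes with no footprint count in either library of HCT116 (orange) or 841CON (green), which falls as the RNA level rises and is higher for HCT116 at every level below 500 CPM.

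Many genes with RNA in both lines had no HCT116 footprint at all. Neither HCT116 footprint library counted 1222 of the tested genes (14.4%) that had footprints in 841CON, while 145 (1.71%) had footprints in HCT116 alone and 160 (1.88%) in neither. Of the 1222, 943 were called lower, which is 36.3% of all lower calls. Of the 145, 102 were called higher, 7.97% of the higher calls. For the 943 genes a fold is a lower bound, taken at a floor of 3 counts over the line's 2 footprint libraries, which corresponds to 1.47 CPM in HCT116 and 0.747 CPM in 841CON. The median bound was an at least 11.4-fold lower TE in HCT116, with the middle 50% between 5.52 and 24.2. The bound exceeded 10-fold for 513 genes. For the 102 genes without an 841CON footprint the median bound was an at least 31.4-fold higher TE in HCT116, and it exceeded 10-fold for 84. These bounds cover counting error only and leave out the spread of INPUT.

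The 943 genes called lower with no HCT116 footprint were less abundant as RNA than the tested genes in general, but not rare. A further 279 genes with footprints in 841CON alone were not called and are left out here. Their median INPUT level was 24.03 CPM in HCT116 and 35.0 CPM in 841CON, for the 943 called lower, against 50.7 and 57.5 CPM over all tested genes. Their median footprint count was 97 over both 841CON libraries. The call rule partly sets this count, since a call without HCT116 footprints needs enough 841CON ones. RNA passed as lower in HCT116 for 176 of these 943 genes and as higher for 36, against 1455 and 1215 of all 8502 tested, and did not pass for 731. The 102 genes with no 841CON footprint had median INPUT levels of 28.8 CPM in HCT116 and 17.5 CPM in 841CON and a median of 79 HCT116 footprint counts. RNA did not pass for 81 of these. With at least 20 counts in every INPUT library, the 5 lower genes with most 841CON footprints had 830 to 1075 of them and none in HCT116, with bounds of 24.5- to 161-fold. The 5 higher genes with most HCT116 footprints had 232 to 394 and none in 841CON, with bounds of 18.8- to 144-fold.

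Both HCT116 footprint libraries lacked largely the same genes. Of 5982 genes at 20 CPM or more in the INPUT of both lines, 767 (12.8%) had no count in the first library and 780 none in the second. Of these, 568 had none in either, and the largest count in the other library was 9 and 8. In 841CON, 89 (1.49%) and 148 (2.47%) genes had no count in a library and 75 had none in either. A further 558 genes had 1 to 5 footprint counts over both HCT116 libraries, against 96 in 841CON.

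HCT116 had the highest share of genes without footprints among the 6 populations of the series, a description with no test. With all footprint libraries at their deposited depth, 927 of 7448 genes at 20 CPM or more in HCT116 INPUT had no footprint (12.4%). The shares were 2.63% in 841CON, 0.664% in HCT15 and 3.75% in SW620, which are further colon lines, and 0.328% and 0.120% in HCT15 carrying the PLVX vector and in HCT15 overexpressing COPS7B. With footprints thinned to 182305 counts per population, the shallowest total, the shares were 22.7% in HCT116, 9.93% in 841CON, 6.27% in HCT15, 3.75% in SW620, 2.88% in the vector cells and 1.76% in the overexpressing cells. HCT116 was thus highest at the deposited and at equal footprint totals, while INPUT depth was not matched between populations. Of the 943 genes lower in HCT116 without a footprint there, 926 had footprints in HCT15 (98.2%, against 98.9% of all tested genes) and 807 in SW620 (85.6%, against 91.9%).

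**Figure D4:**
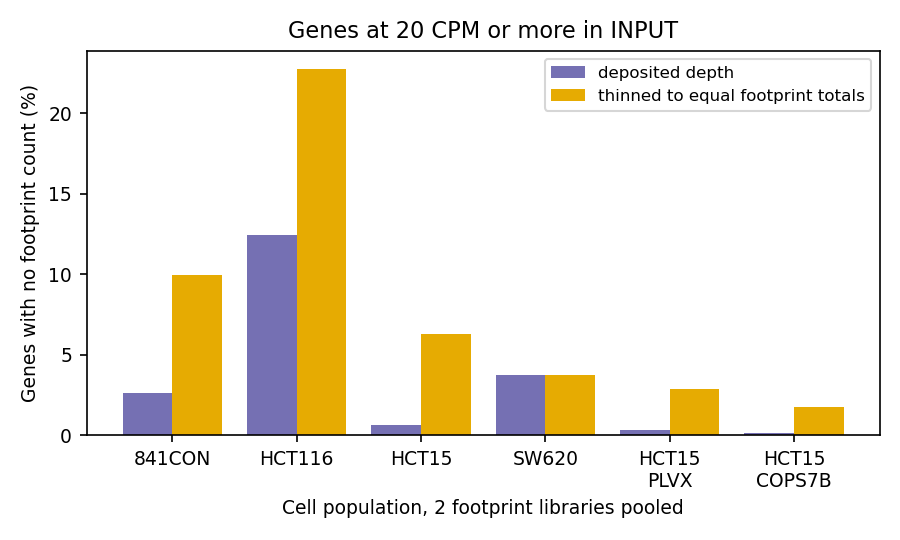
Percentage of genes at 20 CPM or more in a population's INPUT that had no count in either of its footprint libraries, at deposited depth (purple) and with footprints thinned to equal totals (yellow). HCT116 has the tallest bar of both kinds, 12.4% and 22.7%.

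The ranking of genes by TE was shared little between the lines. Over the 6062 genes counted in all 8 libraries, the log2 ratio of footprints to INPUT correlated at 0.955 between HCT116 replicates 1 and 2 and at 0.638 between those of 841CON. Between the lines the correlation was 0.159 to 0.180. Footprint levels correlated at 0.355 to 0.361 between the lines, less than INPUT levels, at 0.5004 to 0.5558. Footprints of HCT116 correlated with the INPUT of HCT116 at 0.547 over group means, and those of 841CON with the INPUT of 841CON at 0.650. Among the INPUT groups of the 6 populations, HCT116 footprints correlated best with that of HCT116, the next being 0.449 with the vector cells and the lowest 0.309 with 841CON. HCT116 INPUT in turn correlated at 0.632 with HCT15 footprints, 0.647 with those of the vector cells and 0.607 with those of the overexpressing cells, above its value with HCT116 footprints, and at 0.495 and 0.451 with those of SW620 and 841CON. The labels were taken as given, and every TE value here rests on them. These correlations run over genes, not replicates, and they share library depth and, for TE, the INPUT counts.

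Genes with ample counts showed changes of both directions. At least 20 counts in each INPUT library and 10 in each footprint library were found for 4289 genes, of which 738 were higher and 588 lower. Their median log2 change was 0.08. Both floors are on counts and the HCT116 footprint libraries were the shallower, so no direction is read from these sides. In a fit of the 8 libraries alone, 3840 of 7614 genes passed for TE (50.4%). Calls held for 143 higher and 120 lower of the well counted genes both in that fit and with close pairs summed. The 12 of these with the greatest rise had log2 TE changes of 5.06 to 7.31, with RNA changes of -3.64 to 2.28 and footprint changes of 2.60 to 7.86. The 12 with the greatest fall had TE changes of -6.14 to -4.06, RNA changes of -0.21 to 2.87 and footprint changes of -4.41 to -1.57. RNA passed as higher for 8 of the 12 genes that fell and did not pass for the other 4. Among the 12 that rose, RNA passed as lower for 3, as higher for 2 and did not pass for 7. Over all 8502 tested genes RNA passed as higher for 1215 and as lower for 1455. RNA enters TE with the opposite sign, so picking genes by a large TE change favours opposite RNA changes. The floor of 10 footprint counts also limits how far footprints of a chosen gene can fall. No property of these genes is read from their RNA calls.

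The gene with the greatest rise among the well counted genes that passed in all 3 fits, ENSG00000116251, gained footprints at nearly equal RNA. Its INPUT levels were 39.6 and 79.0 CPM in 841CON and 75.4 and 64.8 CPM in HCT116. Its footprint levels were 16.98 and 14.55 CPM in 841CON, from 46 and 19 counts, and 2884 and 2979 CPM in HCT116, from 2916 and 3069 counts. The INPUT ranges of the lines overlapped and the footprint ranges lay far apart. TE was higher by 7.31 ± 0.74 on the log2 scale (SE, edgeR adjusted p = 1.6e-06, n = 2 libraries per group), and the ratio of mean footprint to mean INPUT level was 157-fold higher. The RNA change was 0.21 (edgeR adjusted p = 0.784) and the footprint change 7.52. The TE change was 7.66 without 841CON INPUT replicate 1 or 6.70 without replicate 2.

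ENSG00000198712 had abundant RNA in both lines and few footprints in 841CON. Its INPUT levels were 778 and 3997 CPM in 841CON and 4715 and 5148 CPM in HCT116. Footprints stood at 14.4 and 9.95 CPM in 841CON, from 39 and 13 counts, and at 2874 and 2905 CPM in HCT116. The 841CON INPUT libraries lay far apart here, yet both were below those of HCT116. TE was higher by 6.81 ± 0.95 on the log2 scale (SE, edgeR adjusted p = 2.4e-05), with an RNA change of 1.05 that did not pass (edgeR adjusted p = 0.197). Leaving out 841CON INPUT replicate 2 gave 5.18, and leaving out replicate 1 gave 7.51.

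ENSG00000101337 had the greatest fall in TE among the well counted genes that passed in all 3 fits, with more RNA and fewer footprints in HCT116. INPUT levels were 37.7 and 25.6 CPM in 841CON and 124 and 122 CPM in HCT116. Footprint levels were 239 and 217 CPM in 841CON, from 646 and 284 counts, and 11.9 and 13.6 CPM in HCT116, from 12 and 14 counts. Neither assay's ranges overlapped between the lines. TE fell by 6.14 ± 0.51 on the log2 scale (SE, edgeR adjusted p = 4.3e-07), and the ratio of mean levels was 69.5-fold lower. RNA rose by 1.99 (edgeR adjusted p = 0.0002).

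ENSG00000123146 followed the same pattern, with INPUT levels of 26.4 and 25.6 CPM in 841CON and 117 and 112 CPM in HCT116. Its footprint levels were 206 and 201 CPM in 841CON and 19.8 and 16.5 CPM in HCT116, the last from 20 and 17 counts. Again no ranges overlapped. TE fell by 5.62 ± 0.55 on the log2 scale (SE, edgeR adjusted p = 1.1e-06), the ratio of mean levels was 49.2-fold lower, and RNA rose by 2.14 (edgeR adjusted p = 0.00026).

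**Figure D5:**
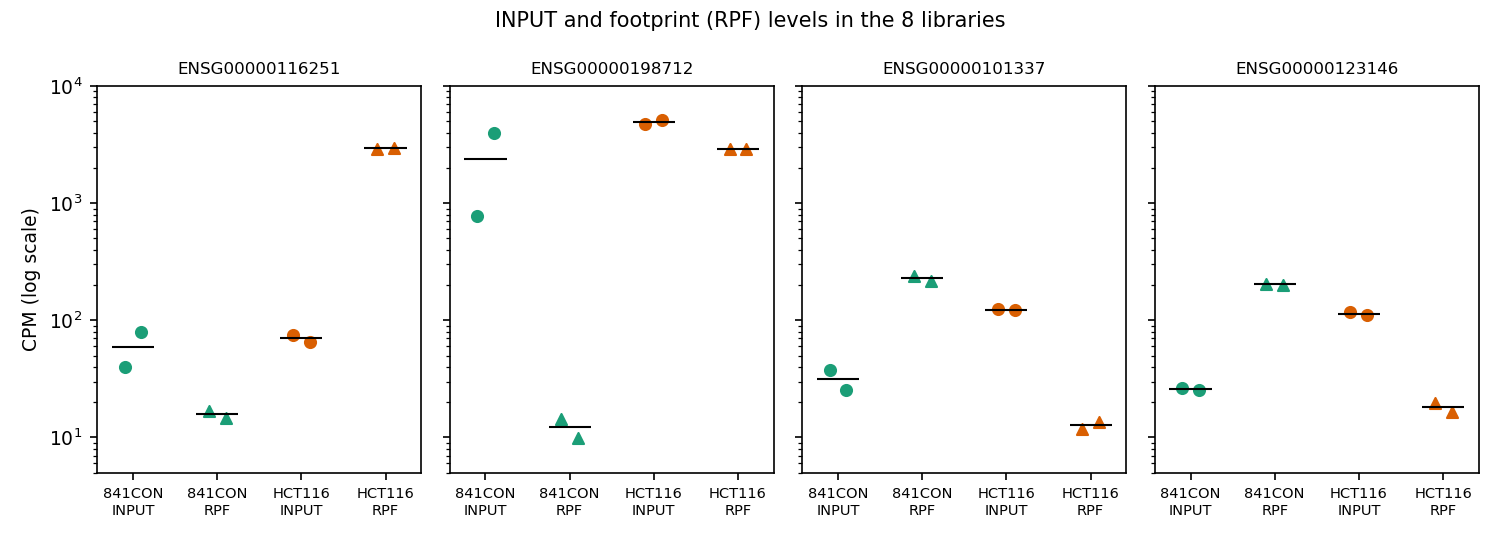
Levels of 4 genes in each INPUT (circles) and RPF (triangles) library of 841CON (green) and HCT116 (orange), in CPM on a log axis, with a bar at the mean of each pair. For the left 2 genes the HCT116 footprints lie far above those of 841CON, at 2874 to 2979 CPM, and for the right 2 they lie below, at 11.9 to 19.8 CPM.

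HCT116 also had more genes of lower than of higher TE when set against the other cancer lines. These comparisons use the same HCT116 libraries, so they are given side by side and are not independent of the comparison with 841CON. Against HCT15, 3157 genes were lower and 889 higher of 9025 tested (44.8% called, edgeR's quasi-likelihood test). Against SW620, 2027 were lower and 985 higher of 8548 tested (35.2% called). The SW620 footprint libraries held just 98043 and 84262 counts, against 997844 and 1012751 in those of HCT116. Genes with no HCT116 footprint made up 1225 and 906 of those lower calls. Among genes counted in every compared library, 1332 were lower and 816 higher against HCT15, and 638 lower and 712 higher against SW620. Which genes were counted in every library of the SW620 comparison depends on the SW620 depth, so no direction is read from those sides.

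The test did not reach 3436 of the fitted genes, because their INPUT was low in at least 1 line. Of these, INPUT was low in HCT116 alone for 1255, in 841CON alone for 1179 and in both for 1002. At least 50 footprint counts were still present for 729 of them in HCT116 and for 1041 in 841CON.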

How the data were processed

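Each of the 24 libraries was deposited by the authors as a table of raw counts for Ensembl genes. Tools listed in the submitters' processing notes are STAR 2.7.9, HTSeq 2.0.2 and cutadapt 3.5, with the build GRCh38. The annotation release, strand setting and counted feature were not given in the sources used here. For this reason counts of overlapping, antisense or near-identical genes are uncertain. The labels do not state how INPUT RNA was fragmented.

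Groups came from the sample labels. An edgeR 4.0.16 quasi-likelihood model (R 4.3.3) took 1 mean for each group over the 24 libraries, leaving 12 residual degrees of freedom. Genes entered through filterByExpr (minimum count 10), applied to each assay. Trimmed means of M-values scaled libraries within each assay. TE was the interaction of line and assay, and RNA and footprint contrasts were tested over the same genes. All tests were two-sided, with Benjamini-Hochberg adjustment and a threshold of 0.05. CPM and TE ratios were computed from the counts. Standard errors are the log2 change divided by the square root of its F statistic. Correlations used log2(CPM + 1). Floors and bounds use 3 counts and reflect counting error alone, since without molecular identifiers reads may be copies of 1 molecule.

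The single genes are the 2 with the greatest rise and the 2 with the greatest fall among genes with at least 20 counts in every INPUT and 10 in every footprint library that passed in 3 fits (24 libraries, 8 libraries, close pairs summed). Gene lists and marker genes by symbol could not be applied, since 0 identifiers were matched to a symbol. The comparison, lists and rules were chosen with earlier results of these data known. Alternatives were other scalings, DESeq2 1.42.0, limma 3.58.1, other filters, fewer libraries, thinning, a replicate block, a 2-fold threshold and leaving out each library.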

Additional observations from a re-analysis of the deposited data

Results flagged for a closer look

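For the 4 genes given singly, the TE of HCT116 was also set against the other cancer lines within the same edgeR quasi-likelihood fit, as a test of whether the change from 841CON differs between lines. The HCT116 libraries are those that chose the genes, so the sizes are not independent of that choice. The footprint-to-INPUT ratio of ENSG00000116251 was 41.8 in HCT116, 0.266 in 841CON, 0.331 in HCT15 and 0.984 in SW620. Its log2 TE change was higher in HCT116 by 7.04 than in HCT15 (edgeR adjusted p = 2.7e-06) and by 5.42 than in SW620 (edgeR adjusted p = 4.6e-05). For ENSG00000198712 it was higher by 4.66 than in HCT15 (edgeR adjusted p = 0.00043). Against SW620 the difference was -1.01 ± 0.85 (SE) and did not pass (edgeR adjusted p = 0.365), with ratios of 0.586 in HCT116, 1.18 in SW620, 0.0234 in HCT15 and 0.0051 in 841CON. The ratio of ENSG00000101337 was 0.104 in HCT116, 7.21 in 841CON, 0.896 in HCT15 and 2.08 in SW620. Its difference was -3.14 from HCT15 (edgeR adjusted p = 8.6e-05) and -4.33 from SW620 (edgeR adjusted p = 2.1e-05). ENSG00000123146 had ratios of 0.159, 7.82, 1.56 and 0.597 in the same order. It differed by -3.29 from HCT15 (edgeR adjusted p = 9.8e-05) and by -1.86 from SW620 (edgeR adjusted p = 0.0447), the last close to the threshold.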

How the results depend on the processing

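Where each of the 4 groups had to average 50 counts or more, 549 genes passed for TE (311 higher, 238 lower), 1092 for RNA and 1239 for footprints, of 2800 tested. Among genes counted in all 8 libraries, refitted alone, 2121 passed for TE, 1111 of them lower, and 3331 for footprints. With close pairs summed, 1822 passed for TE (408 higher, 1414 lower), 812 for RNA and 3471 for footprints. Against a 2-fold change, 1198 passed for RNA. Leaving out 1 library at a time gave 3033 to 4186 calls for TE, 859 to 1347 higher and 2101 to 2892 lower, 1429 to 3128 for RNA and 4451 to 5568 for footprints. The replicate block gave 3482 TE calls (1036 higher, 2446 lower). The deviations of same-numbered INPUT and RPF libraries correlated at -0.06 in 841CON and -0.01 in HCT116. The footprint pairs of both lines differed by little more than sampling noise, so these values cannot decide whether same-numbered libraries are paired. The other alternatives, DESeq2 and limma among them, kept the calls for TE, in all and by direction, and those for RNA and footprints in all within 1.5 times. By direction, limma gave 767 genes with higher RNA against 1215, and thinning left 563 lower genes without an HCT116 footprint against 943. The larger side of the RNA calls also turned with 50 counts (679 higher, 413 lower), without 841CON INPUT replicate 1 (1573 and 1555) and without HCT116 RPF replicate 1 (1274 and 1256) or 2 (1274 and 1257). Without scaling, the median TE change over all tested genes was -0.37 instead of -0.59, and that of footprints -0.07 instead of -0.45. No TE call turned its direction in any setting. Leaving aside the 2 stricter count filters and the 2-fold threshold, calls held in all 18 fits for 329 higher and 1107 lower genes. Of these lower genes 420 had no HCT116 footprint. The 4 single genes kept direction and side of the threshold in all 76 alternative values, of which 8, from 2 fits, were fixed by the rule that chose these genes. None of the 4 was tested where each group had to average 50 counts or more, because their footprints in 1 line fell short of that. Median standard errors were 1.52 to 2.02 for genes below 20 CPM in INPUT and 2.10 for genes with no footprint in at least 1 line.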
